A study of Homo sapiens with 2 samples.

Results

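The 9 genes described here encode transcription factors of squamous epithelium, the layered lining of skin, mouth and oesophagus. TP63, TP73, SOX2, SOX15, KLF4, KLF5, PITX1, GRHL2 and ZNF750 were taken by gene symbol from the 61806 genes of the deposited table, and each symbol matched 1 row. Their transcripts were counted in SAS, an established human epithelial line of tongue squamous cell carcinoma whose genotype is given as wild type. The control library came from cells given a negative control siRNA, and the other library from cells given siRNA sequence 2 against COL17A1. Both were harvested 48 hours after lipid transfection and differ, per the labels, in the siRNA alone. The series asks what follows when COL17A1, a transmembrane collagen that anchors basal epithelial cells, is reduced in head and neck squamous carcinoma. With 1 library per group, 1 cell line and 1 targeting siRNA, no difference below has a replicate check, and each describes these libraries.

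Squamous epithelium is renewed from a basal layer whose cells divide, leave the layer and then differentiate towards the surface. p63, the protein of TP63, maintains the basal state and opens enhancers of keratinocyte genes, and KLF5 and GRHL2 act beside it on proliferation and on cell junctions. KLF4 and ZNF750 belong to the switch to terminal differentiation, ZNF750 being a known target of p63 and KLF4 acting downstream with it. SOX2 is a lineage oncogene of many squamous carcinomas and a binding partner of p63, PITX1 is a homeobox factor of the oral and limb fields, and TP73 is the close relative of TP63.

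The control library held 15980152 counts and the COL17A1 siRNA library 21601195. The targeted gene COL17A1 had 3116 and 411 counts, a 10.5-fold lower level after scaling. All 10 markers of squamous epithelium were measured, with summed levels of 1104 and 1460 FPKM, the authors' level per exon length and library size. Single markers went both ways, with KRT5 at 159.01 and 247.6 FPKM and DSG3 at 15.49 and 10.47. Of the markers of other cells, those of fibroblasts summed to 0.17 and 0.27 FPKM and those of endothelium to 0.10 and 0.09, with COL1A2, COL3A1, PECAM1 and KDR at 0 in both libraries. Immune markers summed to 1.88 and 3.26 FPKM, of which CD14 made up 1.79 and 3.20, with PTPRC, CD3E and MS4A1 at 0 in both.

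By level per length, TP63 and KLF5 stood at the top of the 9 factors and SOX2 at the bottom. In the control library the order was TP63 at 59.81 FPKM, KLF5 at 58.94, GRHL2 at 27.34, KLF4 at 10.97, SOX15 at 5.72, PITX1 at 3.84, TP73 at 1.40, ZNF750 at 0.81 and SOX2 at 0. Only TP63 and KLF5 were neighbours whose levels there did not differ beyond counting error, with a ratio of 1.01 and an exact 95% interval of 0.974 to 1.06. In the COL17A1 siRNA library KLF5 at 48.34 FPKM stood above TP63 at 44.46, and PITX1 at 10.68 stood above SOX15 at 9.10. TP73 at 1.70 FPKM and ZNF750 at 1.33 were the neighbours that could not be told apart in that library, with a ratio of 1.28 and an interval of 0.996 to 1.64. The order rests on the deposited exonic length of each gene, such as 7479 bases for TP63 and 3679 for KLF5. The length of the transcripts present was not measured, and these intervals do not cover it. Among all 13375 tested genes, those with a mean of at least 1 CPM (counts scaled to library size), the level of TP63 with the COL17A1 siRNA lay at percentile 92.2 and that of ZNF750 at percentile 22.4.

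**Figure D1:**
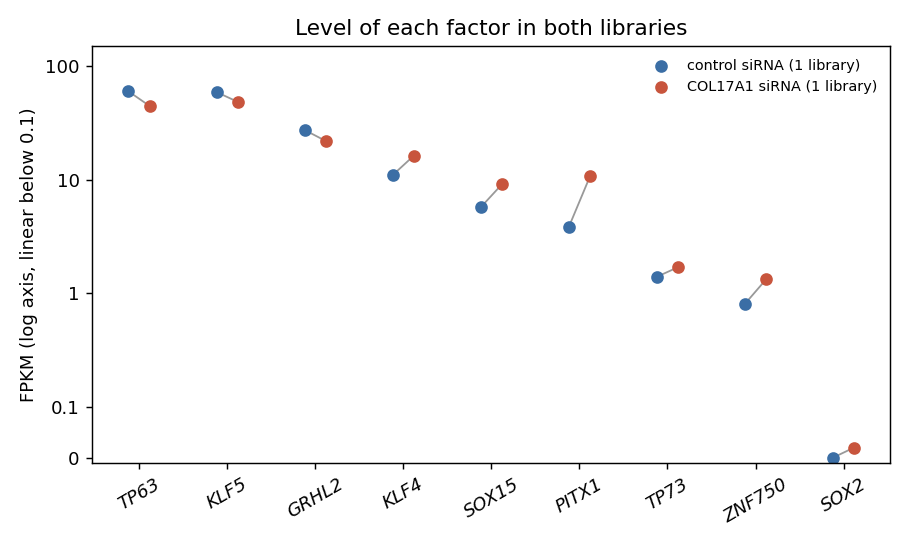
Level of each of the 9 factors in FPKM (vertical axis, logarithmic above 0.1 and linear below) in the control siRNA library (blue) and the COL17A1 siRNA library (red), 1 library each, with a line joining the values of a gene. TP63, KLF5 and GRHL2 lie lower in the COL17A1 siRNA library, from 59.81 to 44.46 FPKM for TP63, and PITX1 lies higher, from 3.84 to 10.68 FPKM, while SOX2 stays at 0 and 0.02.

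The factors of the basal and epithelial state, TP63, KLF5 and GRHL2, each had a slightly lower level with the COL17A1 siRNA, and none of them differed by 1.5-fold. A gene is called higher or lower here when its scaled level differed by at least 1.5-fold and the exact 95% interval of the ratio, which covers counting error only, excluded no difference. TP63 (chromosome 3, 189631389 to 189897276 on GRCh38, plus strand) had 7148 counts with the control siRNA and 7182 in the deeper COL17A1 siRNA library. Its log2 ratio, COL17A1 siRNA over control, was -0.47 [-0.51 to -0.42], a 1.38-fold lower level. The counts are per gene, so the long TA transcripts from the upstream start and the short deltaN transcripts from the internal start, which predominate in basal keratinocytes, cannot be told apart.

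KLF5 (chromosome 13, 73054976 to 73077541, plus strand), a zinc finger activator of basal cell proliferation, had 3465 and 3842 counts and a log2 ratio of -0.32 [-0.39 to -0.26]. GRHL2 (chromosome 8, 101492439 to 101669726, plus strand), a grainyhead factor that keeps junction genes such as CDH1 active, had 2645 and 2862 counts and a log2 ratio of -0.36 [-0.44 to -0.28]. The intervals of these 3 abundant genes excluded no difference, and the sizes, up to 1.38-fold for TP63, lay under the call. No locus that overlaps TP63 or GRHL2 had more than 1 count in either library, and none overlaps KLF5.

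The factors of differentiation, KLF4 and ZNF750, had higher levels with the COL17A1 siRNA, ZNF750 past the call and KLF4 just short of it. KLF4 (chromosome 9, 107484852 to 107490482, minus strand), which drives the barrier of the outer epidermis, had 642 and 1286 counts, or 10.97 and 16.26 FPKM. Its log2 ratio was 0.53 [0.39 to 0.67], 1.44-fold higher. ZNF750 (chromosome 17, 82829434 to 82840022, minus strand), a zinc finger protein that activates differentiation genes and represses progenitor genes, was scarce, with 41 and 91 counts. Its log2 ratio was 0.67, a 1.59-fold higher level with an interval of 1.09-fold to 2.37-fold that reached well below the call size. With trends over all tested genes in length, GC content and abundance removed it was at 0.52 [-0.02 to 1.10] and was not called. ZNF750 lies inside TBCD, a tubulin cofactor gene on the opposite strand, which had 487 and 617 counts and a log2 ratio of -0.13 [-0.31 to 0.04].

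KLF4 and KLF5 bind similar DNA words, and their log2 ratios had opposite signs. Per length, KLF4 stood at 0.186 of the level of KLF5 in the control library and at 0.336 in the COL17A1 siRNA library. This ratio does not depend on how the libraries are scaled, and it was 1.81 times larger in the latter, with an exact interval of 1.62 to 2.01. Between ZNF750 and the host locus TBCD the same measure was 1.75, with an interval of 1.17 to 2.65. Both pairs were chosen after their values were seen. Neither measure is adjusted for the trends with length, GC content and abundance. With those trends removed the log2 ratios were 0.39 for KLF4 and -0.30 for KLF5. They were 0.52 for ZNF750 and 0.15 for TBCD.

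Of the SOX factors, SOX2 was at or under the detection limit and SOX15 was called higher. SOX2 (chromosome 3, 181711925 to 181714436, plus strand) had 0 counts with the control siRNA and 1 with the COL17A1 siRNA. In the control library 0 counts allow up to 0.190 CPM, or 0.0747 FPKM for a gene of this length, taking 3 counts as the limit, so no fold is given. SOX2-OT, the long noncoding RNA gene that contains SOX2 on the same strand, had 1 and 2 counts.

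SOX15 (chromosome 17, 7588178 to 7590094, minus strand), the sole member of its SOX subgroup and a gene of stratified epithelia, had 134 and 288 counts, or 5.72 and 9.10 FPKM. Its log2 ratio was 0.63 [0.33 to 0.94], 1.54-fold higher. The call ended when trends with length, GC content and abundance over all tested genes were removed, which left 0.16 [-0.14 to 0.47]. It lies inside the deposited span of MPDU1, a gene of glycosylation on the opposite strand with 1476 and 3109 counts. The log2 ratio of MPDU1 was 0.60 [0.51 to 0.69], and SOX15 relative to MPDU1 differed between the libraries by a factor of 1.02, with an interval of 0.820 to 1.27. In GENCODE 29 exons of MPDU1 cover 15 of the 1541 exonic bases of SOX15, but whether the counting used strand is not given in the sources used here. If strand was not used, reads of both genes cannot be told apart where they overlap, and the part of MPDU1 in the SOX15 value was not tested.

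TP73 was scarce, and the interval of its ratio included no difference and ended at 1.46-fold higher, under the call size. TP73 (chromosome 1, 3652516 to 3736201, plus strand), which encodes p73, had 151 and 248 counts, or 1.40 and 1.70 FPKM, and a log2 ratio of 0.24 [-0.06 to 0.54]. TP73-AS1, which overlaps the end of TP73 on the opposite strand over 633 exonic bases in GENCODE 29, had 121 and 96 counts and a log2 ratio of -0.81 [-1.21 to -0.41]. WRAP73, which overlaps the start of TP73 on that strand, had 181 and 312 counts. Per length, TP73 stood at 0.0233 of the level of TP63 in the control library and at 0.0382 in the other.

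PITX1 differed most among the 9 factors. PITX1 (ENSG00000069011, chromosome 5, 135027734 to 135034813, minus strand) had 211 counts with the control siRNA and 794 with the COL17A1 siRNA, or 3.84 and 10.68 FPKM. Its log2 ratio was 1.44 [1.22 to 1.66], 2.71-fold higher, and it was the single factor past 2-fold. With trends in length, GC content and abundance removed it was at 0.94 [0.72 to 1.17], which is under 2-fold. The value before that step ranked 64 from the top among 13375 tested genes. It ranked 6 among the 912 that the deposited annotation marks as DNA-binding transcription factors. PITX1-AS1, which overlaps the start of PITX1 on the opposite strand, had 10 and 16 counts. PITX3 had 3 and 6 counts.

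The promoters of PITX1, KLF4 and TP63 are shown because these are the factor with the largest ratio, the more abundant differentiation factor and the most abundant basal factor. They are RefSeq sequences on GRCh38.p14, written 5′ to 3′ on the strand of the gene, from 250 bases before to 50 after the annotated start, at chr5:135034179-135034478, chr9:107489720-107490019 and chr3:189631139-189631438. Capitals mark CCACCC or GGGTGG, the core of KLF sites, AACCGG or CCGGTT, the core of grainyhead sites, and TATAAA or TTTATA, the TATA word.
PITX1: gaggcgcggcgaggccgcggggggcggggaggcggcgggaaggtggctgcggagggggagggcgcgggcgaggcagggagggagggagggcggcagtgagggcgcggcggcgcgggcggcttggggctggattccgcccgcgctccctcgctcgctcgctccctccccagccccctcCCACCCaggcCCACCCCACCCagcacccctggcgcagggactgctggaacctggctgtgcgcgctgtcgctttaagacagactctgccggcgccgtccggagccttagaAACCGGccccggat
KLF4: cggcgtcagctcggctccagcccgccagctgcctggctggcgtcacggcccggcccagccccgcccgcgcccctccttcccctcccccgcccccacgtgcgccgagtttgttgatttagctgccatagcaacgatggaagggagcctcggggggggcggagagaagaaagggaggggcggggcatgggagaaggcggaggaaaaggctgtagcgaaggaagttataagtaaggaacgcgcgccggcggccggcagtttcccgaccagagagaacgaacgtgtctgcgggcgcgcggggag
TP63: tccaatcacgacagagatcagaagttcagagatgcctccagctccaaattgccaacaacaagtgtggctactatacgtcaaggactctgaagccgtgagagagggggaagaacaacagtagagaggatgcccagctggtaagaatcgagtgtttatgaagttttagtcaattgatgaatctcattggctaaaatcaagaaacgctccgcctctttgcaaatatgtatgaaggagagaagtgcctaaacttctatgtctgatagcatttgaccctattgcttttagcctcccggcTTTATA

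The PITX1 window is GC-rich, at 77.0%, and holds 3 CCACCC words, the last pair overlapping, and 1 AACCGG word. The KLF4 window has 69.0% GC and none of the 3 words on either strand. The TP63 window, that of the upstream start, has 43.7% GC and 1 TTTATA word at its very end. The median over the 35116 windows of the table is 58.7% GC. The KLF word is found in 34.3% of these windows, the grainyhead word in 7.23% and the TATA word in 11.5%. KLF5 has windows at 2 starts, with 40.7% and 71.3% GC, and no KLF word in either. These matches describe letters, and which start the SAS cells used was not measured here.

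Of the 8 factors tested, SOX2 being below 1 CPM, 3 were called higher, 0 lower and 5 neither. Of all tested genes 12.2% were called higher and 11.7% lower, and 3 of 8 factors is 37.5%. At 2-fold, 1 of the 8 was higher and 0 lower, against 3.04% and 3.60% of all tested genes. The median log2 ratio of the 8 was 0.38, beside 0.03 over all tested genes. Of the 912 annotated transcription factors, 12.3% were called higher and 11.6% lower, around a median of -0.01. With no replicate there is no test of these counts.

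**Figure D2:**
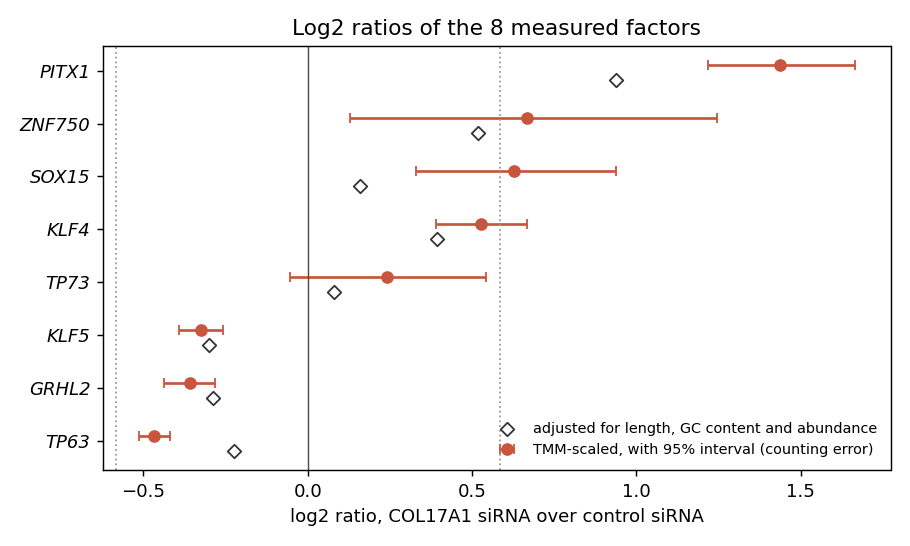
Log2 ratio of COL17A1 siRNA over control siRNA (horizontal axis) for the 8 tested factors, as points with exact 95% intervals that cover counting error only, from 1 library per group, and as open diamonds after removal of the trends with length, GC content and abundance. Dotted lines mark 1.5-fold; PITX1 at 1.44 lies past the upper line, and at 0.94 after the adjustment, while TP63 lies at -0.47 and at -0.22.

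Across all tested genes the log2 ratio went with transcript composition, and each of the 8 factors had the sign of the median of its GC class. TP63, KLF5 and GRHL2, at 42.5% to 49.8% GC, lay below 0. The 5 others, from 53.2% for ZNF750 to 68.9% for PITX1, lay above 0, so the split by sign was also a split by GC content. The medians were -0.01 in the class of KLF5 and GRHL2 and 0.16 in that of KLF4 and ZNF750. In the fifth with the highest GC content, from 57.7% upward, the median log2 ratio was 0.33 and 25.6% were called higher, and PITX1, SOX15 and TP73 belong there. In the fifth that holds TP63, between 40.8% and 45.4% GC, the median was -0.12, with 5.85% called higher and 16.3% called lower. Short genes likewise had higher ratios than long ones, with medians of 0.37 in the shortest of 5 equal classes, which holds SOX15, and -0.25 in the longest. TP63 with 7479 exonic bases and 42.5% GC and PITX1 with 3442 bases and 68.9% GC lay on opposite sides of these trends. By length KLF5, GRHL2 and TP73 had the sign opposite to the median of their class, at 0.16, 0.02 and -0.11.

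After linear and quadratic terms of length, GC content and abundance were fitted over all tested genes and removed, PITX1 was at 0.94 and was the single factor still called. Of all tested genes with a known GC content 9.10% were called higher after this step and 8.35% lower. ZNF750 was then at 0.52, KLF4 at 0.39, SOX15 at 0.16 and TP73 at 0.08. KLF5, GRHL2 and TP63 stayed below 0, at -0.30, -0.29 and -0.22. All 8 factors kept their sign.

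**Figure D3:**
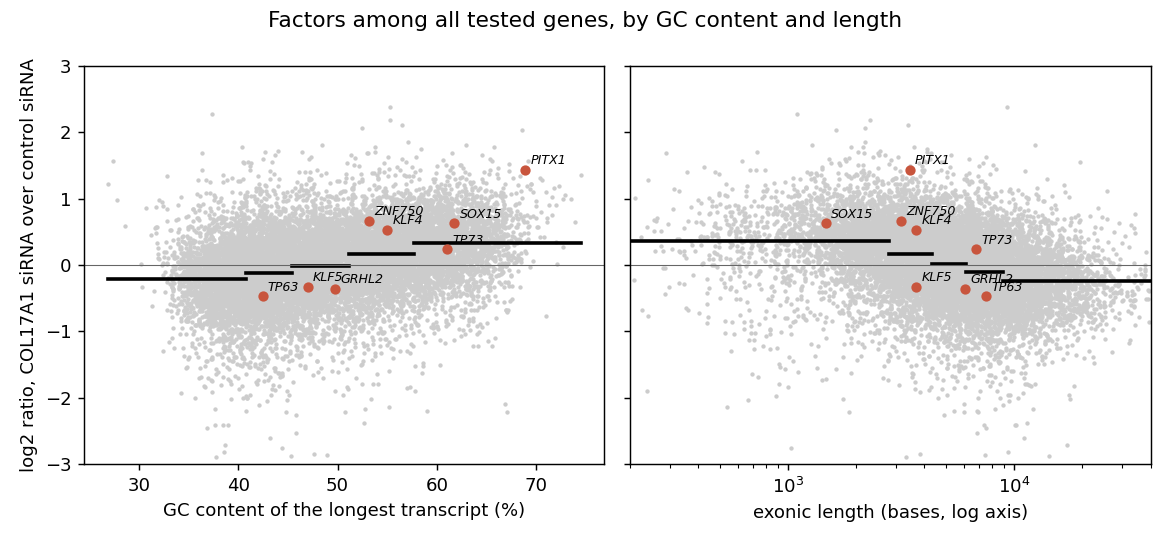
Log2 ratio of COL17A1 siRNA over control siRNA (vertical axis) of all tested genes with a known GC content (grey), against GC content of the longest GENCODE 29 transcript in percent (left) and exonic length in bases on a log axis (right). Black bars give the median in each of 5 equal classes of genes, from -0.21 to 0.33 along GC content and from 0.37 to -0.25 along length, and red points are the 8 factors; values beyond 3 in size are not drawn.

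Relatives of the factors by family were also measured. Of 20 SOX genes 6 were tested, and SOX12, a group C factor, was called higher beside SOX15 at 0.96 [0.77 to 1.15]. These 2 are 33.3% of the 6, beside 12.2% of all tested genes called higher. SOX4, SOX7, SOX9 and SOX13 lay between -0.26 and -0.01. SOX7 at 11.89 and 11.39 FPKM and SOX4 at 7.07 and 6.07 stood above SOX15 at 5.72 in the control library.

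Of 17 KLF genes 13 were tested, 3 were called lower and 0 higher, around a median of -0.28. The lower ones are 23.1% of the 13, beside 11.7% of all tested genes. The called ones were KLF7 at -0.95 [-1.05 to -0.86], KLF12 at -0.95 [-1.14 to -0.75] and KLF6 at -0.63 [-0.73 to -0.52], which was at -0.49 and not called after the adjustment. KLF10, a target of TGF-beta signalling and at 86.85 FPKM the most abundant KLF gene of the control library, was at -0.58. KLF4 had the highest log2 ratio of the 13, followed by KLF2 at 0.50 [-0.45 to 1.57] on 14 and 28 counts. In the grainyhead family GRHL1 at 0.57 [0.11 to 1.06] and GRHL3 at 0.17 [-0.43 to 0.79], both scarce, were not called, and TFCP2L1 was called lower at -0.82 [-1.17 to -0.47].

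**Figure D4:**
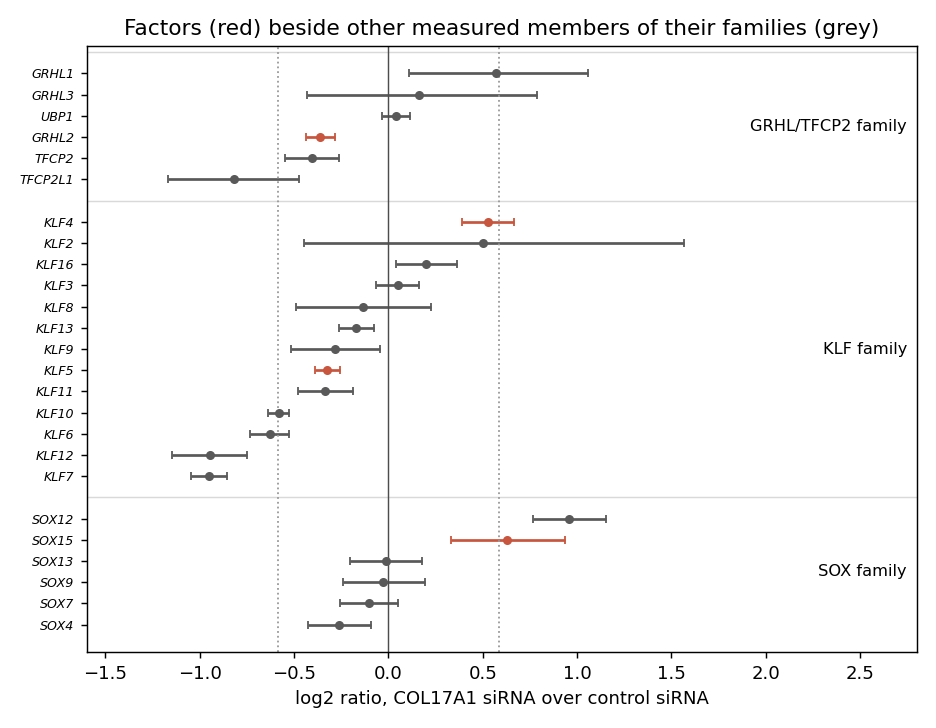
Log2 ratio of COL17A1 siRNA over control siRNA (horizontal axis) with exact 95% intervals for counting error, 1 library per group, of every tested member of the SOX, KLF and grainyhead families, with SOX15, KLF4, KLF5 and GRHL2 in red and other genes in grey. Dotted lines mark 1.5-fold; KLF4 at 0.53 is at the top of its family and KLF5 at -0.32 lies among the 9 KLF genes below 0.

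Of 35 other transcription factors of squamous epithelium 24 were tested, 2 were called higher and 3 lower, around a median of 0.01. These are 8.33% and 12.5% of the 24, beside 12.2% and 11.7% of all tested genes. BNC1, a zinc finger factor of basal keratinocytes, was lower at -0.92, as were ETS1 at -0.92 [-0.97 to -0.86] and PRDM1, a repressor in differentiating cells, at -0.74 [-1.03 to -0.45]. OVOL2, an epithelial repressor of mesenchymal genes, was among the higher ones at 0.63 [0.31 to 0.97] and was at 0.33, not called, after the adjustment.

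Of 22 tested p63 targets other than the factors themselves 1 was called higher and 3 lower, with a median of 0.11, beside 12.2% and 11.7% of all tested genes. The basal keratin gene KRT5 was higher at 0.60, and DST, a hemidesmosome linker, BNC1 and the Notch ligand gene JAG1 were lower at -0.93, -0.92 and -0.66. The count of higher ones was 0 with DESeq2 size factors, 3 with scaling by total counts and 2 after the adjustment. All tested genes called higher were 11.4%, 14.0% and 9.10% at these settings. PERP of desmosomes lay close to the call at 0.58. After the adjustment KRT5 at 0.46, JAG1 at -0.50 and DST at -0.23 were no longer called and BNC1 at -0.84 was, while the 2 higher ones were PERP and FGFR2, a growth factor receptor gene, both at 0.73. Of 9 tested GRHL2 targets 4 (44.4%) were called higher and 0 lower, beside 12.2% and 11.7% of all tested genes. Their median was 0.35, while GRHL2 itself was at -0.36. The higher ones were the claudin gene CLDN4 at 1.00 [0.76 to 1.26], the GTPase gene RAB25 at 0.72 [0.60 to 0.84], the protease inhibitor gene SPINT1 at 0.69 [0.61 to 0.77] and OVOL2. CDH1, EPCAM and ESRP1, also targets of GRHL2, were at 0.03, 0.05 and -0.02. After the adjustment only CLDN4 was still called among the 9, at 0.85, beside 9.10% of all tested genes called higher. Of 6 KLF5 targets CCND1, the G1 cyclin, was lower at -1.01 [-1.06 to -0.96] and BIRC5, survivin, higher at 0.66 [0.58 to 0.75]. Each is 16.7% of the 6, near the 11.7% lower and 12.2% higher of all tested genes. With none of TP63, GRHL2 and KLF5 called, these counts do not show whether targets followed their factor.

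Most genes of a general list of epithelial differentiation, which was not drawn up as targets of KLF4 or ZNF750, had few or no counts in both libraries. Of its 23 genes 16 were below 1 CPM and 10 of these had 0 counts in both, among them LORICRIN, KRT13, KRT4 and SPRR3. IVL, involucrin, had 2 and 6 counts and FLG, filaggrin, 10 and 16. Of the 7 tested, KRT10, a suprabasal keratin gene, was called higher at 0.79 [0.55 to 1.02] and PRDM1 lower. Each is 14.3% of the 7, beside 12.2% higher and 11.7% lower of all tested genes. The cross-linking enzyme gene TGM1, with 71 and 68 counts, was at -0.54 [-1.04 to -0.04] and at -0.77 after the adjustment, where it was called lower, and the plakin genes EVPL and PPL were at 0.04 and -0.02.

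Among genes whose products modify these factors, more were called lower than higher. Of 20 ubiquitin ligases, cofactors and corepressors 6 were called lower and 2 higher, with a median of -0.31, and 2 and 1 after the adjustment, whose median was -0.03. Before the adjustment these are 30% and 10% of the 20, beside 11.7% lower and 12.2% higher of all tested genes. After it, 8.35% of all tested genes were called lower and 9.10% higher. The acetyltransferase genes CREBBP and EP300, coactivators of p63, were at -1.12 and -0.78 [-0.88 to -0.68]. NEDD4L, a ubiquitin ligase gene, was at -0.90. HDAC1, a histone deacetylase that p63 recruits, was higher at 0.90 [0.83 to 0.97], and PPP1R13L, the inhibitor iASPP, at 0.71 [0.54 to 0.88]. WWP1, the ligase of KLF5, at -0.75, and ITCH, the ligase of p63, at -0.45, were picked for mention after their values were seen. After the adjustment NEDD4L at -0.32, PPP1R13L at 0.38 and WWP1 at -0.50 were no longer called, while CREBBP at -0.96, EP300 at -0.61 and HDAC1 at 0.93 were.

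**Figure D5:**
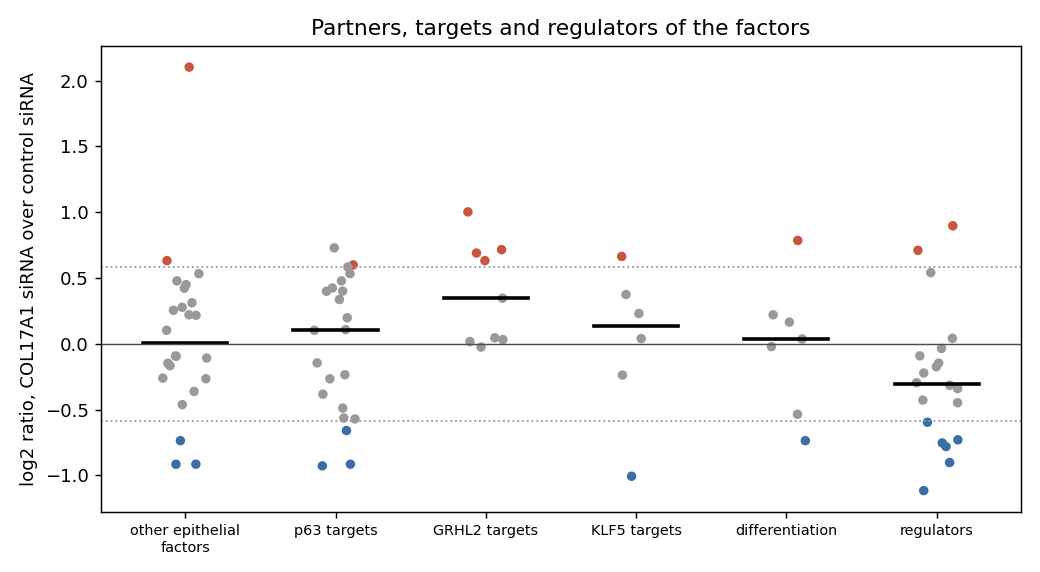
Log2 ratio of COL17A1 siRNA over control siRNA (vertical axis) of tested genes in 6 lists, 1 point per gene other than the 9 factors, spread sideways for display, with red points called higher, blue points called lower and black bars at the list median. Dotted lines mark 1.5-fold; the GRHL2 targets have a median of 0.35 and no lower gene, and the regulators a median of -0.31.

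By level in both libraries on the log2 scale of FPKM with 0.1 added, the genes nearest to PITX1 were MEX3D, an RNA-binding protein gene at 4.08 and 11.15 FPKM, and CYP1B1, a cytochrome P450 gene at 3.84 and 9.72. Nearest to SOX15 were HOXD11 and CALML3, and nearest to ZNF750 were SYDE1 and PRKACB-DT. Likeness over 2 libraries is a weak criterion, since a level and a ratio fix it.

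Earlier work on these data singled out the words GCTAATG and TCGGAGA in 3' UTRs, by the log2 ratios themselves. None of the 9 factors holds GCTAATG in its longest GENCODE 29 3' UTR, against 9.18% of tested genes with such a UTR, whose median log2 ratio was -0.40. PITX1 alone of the 9 holds TCGGAGA, against 2.99% of tested genes, whose median was 0.06. The sequence of the siRNA is not given in the sources used here, and the part of these words in the PITX1 value was not tested.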

How the data were processed

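Polyadenylated RNA from 2 samples, 1 per group as the treatment labels give, was sequenced as paired reads. The deposited table holds counts per gene and library, which were assumed to be raw, that is, not normalized by the authors. The authors' FPKM beside them matched, within 0.0051 for 100% of genes, counts divided by exonic length and column total. The submitters' processing notes name STAR, HISAT2, edgeR, hg38 and GRCh38 without roles. Counter, strand setting and annotation release are not stated in the sources at hand.

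Counts were scaled with TMM factors of 0.987 and 1.01 (edgeR 4.0.16, R 4.3.3). Log2 ratios used counts with 0.5 added, and exact Clopper-Pearson 95% intervals came from both counts (scipy 1.17.1). Intervals and the limit of 3 counts reflect the counting error of reads alone, and with 1 library per group they hold no spread between cultures. The intervals can be too narrow even for counting error, because reads lacking molecular identifiers can be copies of 1 molecule. No p-value was computed. GC content, known for 99.1% of tested genes, and 3' UTRs of at least 50 bases came from GENCODE 29. Promoters were taken by symbol from RefSeq for 6 factors. Windows on chromosome 8, where GRHL2 lies, were left out, and SOX15 and ZNF750 had no entry. Alternatives were other scalings (DESeq2 1.42.0 size factors, total counts, protein-coding genes), 2 added to each count, FPKM with 0.1 added, filters, call sizes and the removal of trends with length, composition and abundance. Scaling, log2 ratios, intervals and calls were tested on simulated counts that held counting error only. The removal of trends, the ratios between genes and the list counts were not tested in this way. Named genes are all 9 factors, COL17A1, overlapping loci, nearest genes, and up to 4 called genes per list or else the 2 most abundant; others named were chosen after their values were seen. Factors and lists were chosen with earlier results of these data known. Some genes that this rule or the lists name are not reported here.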

Additional observations from a re-analysis of the deposited data

How the results depend on the processing

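No paired analysis was possible because each group has 1 library, and for that reason none was left out. Under the other scalings, offset and unit all 8 log2 ratios stayed inside their intervals, from 1.42 to 1.47 for PITX1, and 45 of 48 values did when the adjustment for length, GC content and abundance is included. After that adjustment PITX1 was at 0.94, SOX15 at 0.16 and TP63 at -0.22, and no log2 ratio changed sign under any alternative. The count of factors called higher was 1 after the adjustment, 1 at 2-fold and 2 above 5 CPM. Of all tested genes 9.10% were called higher and 8.35% lower after the adjustment. These shares were 3.04% and 3.60% at 2-fold, and 10.3% and 11.7% above 5 CPM. At the loosest call size 3 factors were called lower, and for other epithelial factors 6 higher and 5 lower, for p63 targets 8 and 7, for KLF genes 1 and 6, with 2 KLF5 targets higher and 2 differentiation genes lower. At 2-fold the counts were 1 higher and 0 lower for other epithelial factors, 0 and 0 for p63 targets and differentiation genes, 1 higher for GRHL2 targets, 0 higher for KLF5 targets, 0 higher and 1 lower for regulators, 0 lower for KLF genes and 0 higher for SOX genes. After the adjustment they were 1 higher for other epithelial factors, GRHL2 targets, regulators and SOX genes, 2 higher for p63 targets, and 2 lower for differentiation genes and regulators. p63 targets called higher numbered 0 with DESeq2 size factors and 3 with total counts or FPKM. All tested genes called higher were 11.4%, 14.0% and 13.0% at these settings. Other epithelial factors called higher numbered 1 above 5 CPM. With at least 1 count as the filter, differentiation genes called lower numbered 2, beside 7.69% of all genes that passed. The added one was CDSN, with 5 and 0 counts. Of 228 values 190 kept within their intervals or 1.5 times the main count. The cause of these changes was not tested. Depth limits ZNF750 and SOX2, with at most 91 counts per library. TP73 and SOX15, with at most 288 counts per library, also have wide intervals.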
